A study of Mus musculus with 12 samples.

Results

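The genes described here are 10 genes of thymocytes and T cells, Dntt, Rag1, Ptcra, Cd3d, Cd3e, Cd3g, Cd4, Cd8a, Cd8b1 and Lck. They were measured on Agilent mouse arrays of hearts and kidneys from mice that lack the nucleoside transporter mENT1 (gene Slc29a1) and from wild type mice. All probes that carry one of these names, or a synonym of it, and are not controls were taken, which gave 10 of 27727 gene names and 19 of 41174 probes. The genes were chosen by their log2 signal per array: an earlier look at these same values had shown them high in part of the knockout hearts. Their values in that contrast are therefore a description and carry no test. The set was split by what the genes are known for: 3 genes of immature cells (Dntt, Rag1 and Ptcra) and 7 genes shared by thymocytes and mature T cells.

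The 12 arrays formed 4 groups of 3, hearts and kidneys of mENT1 knockout mice and the same organs of wild type mice, each with arrays a, b and c. All mice were on the FVB/N background, and the labels name no treatment and give neither age nor sex. The labels speak of 3 knockout and 3 wild type mice but do not say whether a letter marks the same animal in both organs. The sex marks given below differ between knockout heart b and knockout kidney b, and 2 knockout hearts but 1 knockout kidney carry Xist signal, so by these marks the 3 hearts and the 3 kidneys did not all come from the same 3 knockout mice. They also do not say which cells lose the gene, so the knockout is described here only as labelled.

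T cells mature in the thymus from precursors that first rearrange their receptor genes. Rag1 cuts the DNA for this joining, Dntt adds untemplated nucleotides at the joints, and Ptcra encodes the pre-T alpha chain that pairs with the first receptor chain made, and all are switched off before the cells leave the thymus. The CD3 chains, the kinase Lck and the coreceptors CD4 and CD8 are kept by mature T cells in blood and tissues, so a heart or kidney with resident or circulating T cells is known to carry their transcripts at a low level without those of the immature genes.

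Signals are given as log2 of the scanner's processed intensity minus the 75th percentile of the same array, so that 0 is that percentile and each step of 1 is a doubling. The percentile itself lay between 451 and 878 intensity units, and 59.9% to 70.0% of the probes on an array were well above background. Slc29a1 was lower in the knockout, by 2.08 ± 0.26 (SE, n = 3 against 3) in heart (limma, adjusted p = 0.0358) and by 2.85 ± 0.16 in kidney (adjusted p = 0.00558). The heart call was lost with the replicate block by letter (0.0666), without knockout heart a (0.108) and without wild type heart a (0.102), b (0.158) or c (0.184). It was also lost with quantile normalization (limma adjusted p = 0.0573), no filter on dim probes (0.0854), a filter on every array (0.0563) and Xist signal as a covariate (0.182). The kidney call was lost with the block (0.08), with normexp, another background correction (0.702), and without wild type kidney a (0.0742), while Slc29a1 kept its sign in each of these. In a table that the authors also deposited, each column followed the scanner array of the other genotype, so every direction between genotypes below rests on the labels of the scanner files. Knockout hearts a and b and knockout kidney a stood apart in their sex marks, with Xist between 1.21 and 1.70 and 0 of 4 Y-linked genes above background. The other 9 arrays had Xist at -7.97 or lower and all 4 Y-linked genes above background. All knockout hearts were on slide 3 and all wild type hearts on slide 4, so in this organ an effect of the slide and of the genotype cannot be told apart.

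Of the 19 probes, 18 lie on the chromosome of their gene. The remaining probe carries the name Cd8b1 but lies at chr5:114364254-114364313 (mm7, minus strand), away from Cd8b1 on chromosome 6, and it read between -1.09 and -0.49 in the 6 hearts and between 2.40 and 2.81 in the 6 kidneys. It did not follow the other Cd8b1 probe and was set aside. Probe sequences are shown for 5 genes, since they are what the signals were read from. They were taken among probes with at least 1 reading frame free of stop codons, and whether they lie in coding exons was not checked against an annotation of this build. The probes for Cd3d, Cd3g and Dntt are 60 bases long but span 232, 585 and 1570 bases of the genome, so each bridges a gap in the genome, as a probe across a splice junction does. All are given 5′ to 3′ in lower case, with no part marked.
Dntt (chr19:40935135-40936704, mm7, plus strand): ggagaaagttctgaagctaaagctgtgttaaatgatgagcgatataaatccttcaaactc
Rag1 (chr2:101495236-101495295, mm7, minus strand): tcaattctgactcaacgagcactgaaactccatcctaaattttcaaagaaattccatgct
Cd3d (chr9:44920433-44920664, mm7, plus strand): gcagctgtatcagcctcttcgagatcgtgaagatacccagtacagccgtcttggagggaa
Cd3g (chr9:44907978-44908562, mm7, minus strand): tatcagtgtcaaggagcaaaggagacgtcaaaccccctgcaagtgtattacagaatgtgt
Cd8a (chr6:71391822-71391881, mm7, plus strand): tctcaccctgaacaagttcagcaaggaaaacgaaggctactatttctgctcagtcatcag

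The 10 genes lie on 6 chromosomes. Cd3d, Cd3e and Cd3g sit together on chromosome 9, Cd4, Cd8a and Cd8b1 on chromosome 6, Dntt on chromosome 19, Rag1 on chromosome 2, Lck on chromosome 4 and Ptcra on chromosome 17. The Ptcra probe (chr17:44885126-44885186, mm7) lies 1.17 Mb from the probe of Slc29a1, the targeted gene. The Ptcra probe was above background on knockout hearts a and b and on no other array, wild type or knockout. Whether its nearness to Slc29a1 has a part in its signal was not tested.

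Dntt encodes terminal deoxynucleotidyl transferase, a marker of immature lymphocytes. Its brightest probe (chr19:40953285-40953344, mm7) read 5.65, 6.71 and -3.40 on the knockout hearts (a, b, c), against -4.73, -5.29 and -5.10 on wild type hearts a, b and c. It read -5.25, -4.74 and -4.76 on the knockout kidneys and -5.10, -4.61 and -5.20 on the wild type kidneys. Knockout hearts a and b thus stood far above all other arrays, while knockout heart c lay 1.64 above the wild type heart mean of -5.04 ± 0.28 (SD, n = 3). In linear terms heart a was 1660-fold above the wild type heart mean and heart b, where the probe was saturated, at least 3449-fold. The other 2 Dntt probes, one of them printed above, were above background on hearts a and b and on none of the other 10 arrays.

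Rag1 encodes the catalytic part of the recombinase that cuts at receptor gene segments. Its probe with 10 spots (chr2:101489537-101489597, mm7) read 3.44 and 4.33 on knockout hearts a and b and was not well above background on the other 10 arrays, where its signal lay between -8.91 and -7.58. Against the lowest signal that counted as above background in the wild type hearts, heart a was at least 1119-fold and heart b at least 2075-fold higher. Such bounds set the brighter value against the higher of that floor and the dim probe's own signal, array by array. The mean of all 3 knockout hearts was 108-fold above the floor, which is no bound, since heart c was itself at background. The spots of this probe spread with a median SD of 0.13 within an array. The other 2 Rag1 probes gave 3.28 and 4.05, and -1.26 and -0.59, on hearts a and b, and neither was above background elsewhere.

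Ptcra, the pre-T alpha chain, showed the same arrays. It read -1.03 and 0.31 on knockout hearts a and b and between -9.12 and -7.73 on the other 10 arrays, all of these not well above background. Heart a was at least 50.4-fold and heart b at least 128-fold above the wild type hearts. The mean of the 3 knockout hearts was 12-fold above the floor, again no bound, since heart c was at background. With 2 of 3 knockout hearts high and the third at background, the SD of the group (4.81) was of the size of its difference from the wild type.

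The shared genes were above background on all 12 arrays with at least 1 probe each, and again knockout hearts a and b were high. The probe for Cd3d, a signalling chain of the receptor complex, read 3.60, 4.88 and -1.13 on the knockout hearts and -0.69, -1.26 and -1.98 on the wild type hearts. The probe for Cd3g, its partner chain, read 3.40, 4.69 and -1.14 against -0.77, -1.26 and -1.88. Cd3e, which pairs with both, read -1.77, -1.28 and -4.42 against -4.73, -4.51 and -4.87. For all 3 chains hearts a and b exceeded every wild type heart, and heart c lay within 0.28 of the wild type mean. The second Cd3e probe was above background on hearts a and b only.

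CD8 marks cytotoxic T cells and, together with CD4, the double-positive stage in the thymus. Cd8a read 3.62, 4.75 and -2.71 on the knockout hearts and -2.64, -3.82 and -4.00 on the wild type hearts with its brightest probe. Cd8b1, which forms the heterodimer with Cd8a, read 5.74, 6.42 and -0.33 against 0.04, -1.31 and -1.38. On hearts a and b Cd8a was 138-fold and 302-fold above the wild type mean. Cd8b1 was 98.6-fold above it on heart a and at least 158-fold on heart b, where its probe was saturated. The other 2 Cd8a probes gave 101-fold to 265-fold on the same arrays.

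Lck, the kinase bound to CD4 and CD8 that starts receptor signalling, read 4.25, 5.34 and -1.33 on the knockout hearts and -0.90, -1.81 and -1.80 on the wild type hearts. Cd4, the coreceptor of helper T cells, had the smallest difference among the probes that stand for a gene: its probe with 10 spots read -3.36, -2.57 and -5.24 against -5.62, -5.43 and -5.54, which was 4.50-fold and 7.78-fold on hearts a and b. Its second probe was above background on hearts a and b and nowhere else, where it read -3.25 and -2.79, and gave at least 10.9-fold and at least 15.0-fold. The 2 Cd4 probes thus differed in the size of the change and in whether they read a signal outside these arrays.

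**Figure D1:**
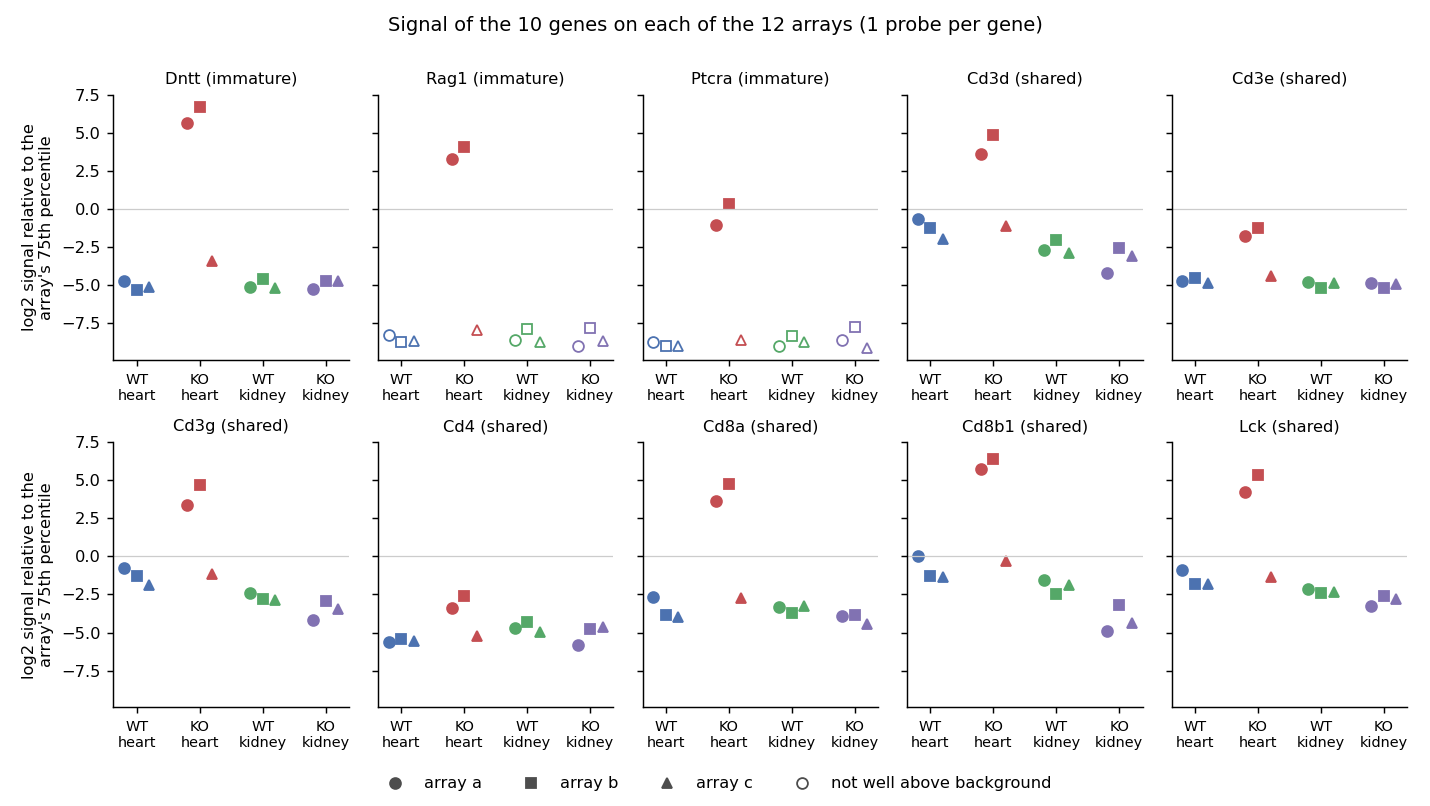
Log2 signal relative to the array's 75th percentile (vertical axis) of 1 probe per gene on arrays a, b and c of the 4 groups, with open symbols where the probe was not well above background. Knockout hearts a and b stand above all other arrays in all 10 panels (Dntt at 5.65 and 6.71), and Rag1 (here the probe that read 3.28 and 4.05) and Ptcra are open on the other 10 arrays.

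Over the 18 probes the difference from the wild type heart mean was larger for the immature genes than for the shared genes, as measured signals and with no floor applied. On knockout heart a the 7 immature probes lay 7.72 to 12.2 above that mean (median 10.7), and the 11 shared probes 2.17 to 7.11 above it (median 4.93). On heart b the ranges were 8.39 to 13.2 (median 11.8) and 2.96 to 8.24 (median 6.19). On heart c they were 0.32 to 2.61 (median 0.62) and -0.32 to 0.77 (median 0.29). The wild type hearts were at background for 6 of the 7 immature probes and above it for at least 1 probe of every shared gene, so the 2 classes start from different levels. With the floor, heart a was at least 50.4-fold up for Ptcra and at least 43.0-fold for 1 Rag1 probe. These bounds lie below the 138-fold of Cd8a, so they do not settle the order for these probes. The other immature probes lay above it, at 191-fold or more.

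Heart b was above heart a at all 18 probes, by 0.46 to 1.34 (median 0.99, with 2 of the probes saturated on b), while the median over the 27027 probes above background on both arrays was 0.02. All 10 genes were above background on hearts a and b, with 18 of 18 probes, and 8 of 10 on each of the other 10 arrays, where Rag1 and Ptcra were the missing ones. With the scanner's weaker criterion, a signal positive and significant against background, the count was 8 to 10 on those arrays. In whole tissue, fewer cells of a type and less RNA per cell cannot be told apart.

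**Figure D2:**
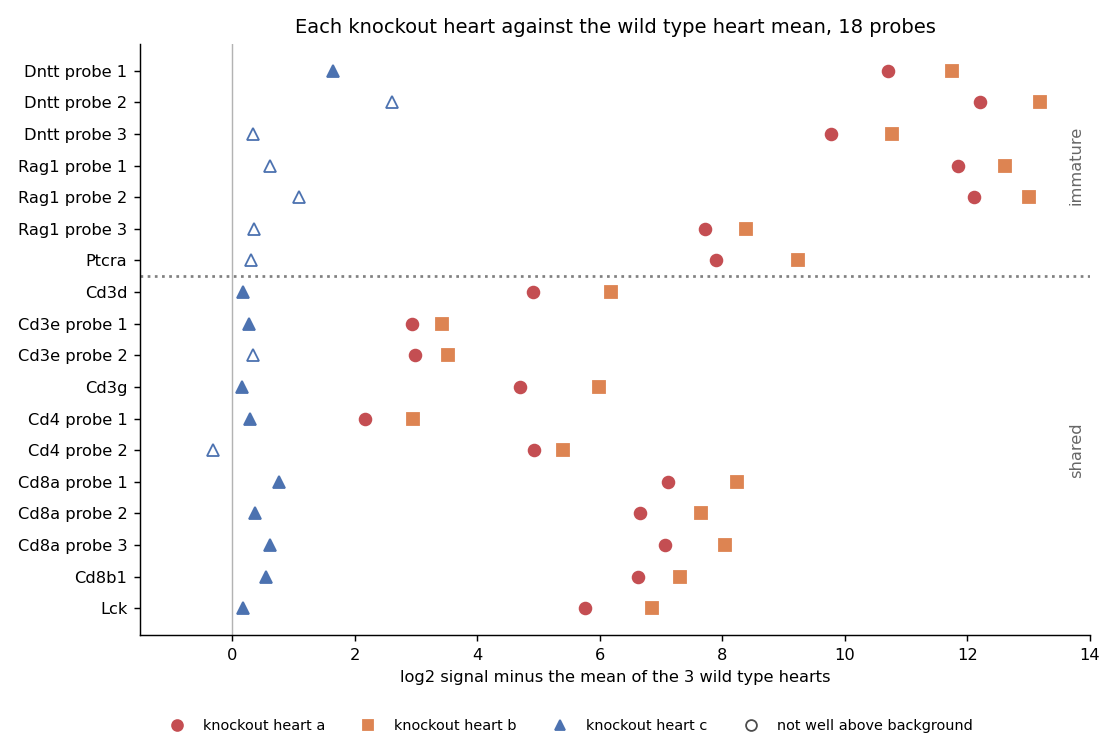
Log2 signal of each knockout heart minus the mean of the 3 wild type hearts (horizontal axis) for the 18 probes (vertical axis), immature genes above the dotted line and shared genes below it. Hearts a and b lie between 2.17 and 13.2 at every probe, and heart c between -0.32 and 2.61.

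Because the contrast between knockout and wild type hearts was used to list these genes, its calls are given without a reading. Of 17516 genes, limma called 117 (0.668%) at an adjusted p under 0.05, and 55 with the letter as a replicate block, in which same-lettered hearts are paired. None of the 8 tested members was among them, and Rag1 and Ptcra were not tested, since no group was above background on all 3 arrays. Without knockout heart c, 2253 of 18274 genes were called. Rag1 and Ptcra enter the fit there only through hearts a and b, so calls of the members in it are no support. Leaving out knockout heart a gave 54 genes called and knockout heart b 69, while dropping the wild type hearts b or c gave 26 or 39. The 2 genotypes had no overlap for 22.1% of the genes tested.

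As a group, other genes of the T cell receptor pathway, from lists made for this work, were high on the same arrays. Of 23 genes of the receptor complex and its signalling on the array, all 23 were above background on hearts a and b and 21 on each wild type heart, and their median difference from the wild type mean was 3.80, 4.57 and 0.04 on the knockout hearts in the same order. Ubash3a, Cd27, Lat and Cd5 had the largest mean differences among the genes tested, which leaves out Trat1, above background on hearts a and b alone. Lat, an adaptor that gathers signalling proteins at the membrane, read 3.49, 4.83 and -1.37 on the knockout hearts and -0.95, -1.74 and -1.93 on the wild type hearts. Cd5, a brake on receptor signalling, read 3.35, 4.15 and -1.5 against -1.28, -2.04 and -2.25. Not every gene of the list was high. Plcg1 read 1.65 and 1.99 on hearts a and b and 1.79 to 2.08 on the wild type hearts. Fyn read -0.79 and -0.57 against -0.96 to -0.64.

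The receptor loci themselves, under the names in the files, were also high. Trbv14, a variable segment of the beta chain, read 6.07, 6.52 and 0.58 on the knockout hearts (saturated on a and b) and 1.08, 0.40 and -0.03 on the wild type hearts. Tcra, the alpha chain, read 2.85, 3.87 and -1.57 against -1.25, -2.21 and -2.41. Of the 6 loci 5 were above background on hearts a and b and 3 or 4 on the other hearts, and probes of such repeated segments can share signal between family members.

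Among 18 other thymocyte genes the median difference was 2.71, 3.67 and 0.00 on the knockout hearts. Ccr9, a chemokine receptor of thymocytes, read 1.61 and 2.68 on hearts a and b and between -6.14 and -5.17 on the other 4 hearts. Tcf7, a transcription factor of the T lineage, read 2.65 and 3.41 against -4.15 to -3.40. Rag2, the partner of Rag1, read -5.67 and -4.74, and Themis, a regulator of thymocyte selection, -1.03 and -0.17, and both were above background on hearts a and b only. Not all of the list was high: Notch3 read 1.53 and 1.27 on hearts a and b and 1.62 to 1.95 on the wild type hearts.

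The 9 genes that join the cut ends in all cell types differed little at the median, and single genes went both ways. Their median difference was -0.07, 0.24 and -0.07 on the knockout hearts, and the largest mean difference was that of Lig4, a DNA ligase, which read 1.18, 1.98 and 0.06 on the knockout hearts and 0.12, 0.05 and 0.25 on the wild type hearts. Rag1 and Dntt, the lymphocyte-specific part of the joining machinery among the members, were listed by their values on hearts a and b. Their size of change is therefore not compared with that of the 9 genes. The 17 genes of mature and effector T cells lay lower than the other thymocyte genes on hearts a and b, with medians of 0.86 and 1.93, and had a median of 0.15 on heart c. Foxp3 and Cd40lg of that list were above background on none of the 12 arrays.

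Markers of other cell types moved on the same arrays. All 14 genes of thymic epithelium, the stroma that supports T cell maturation, were above background on hearts a and b, against 9 on heart c and 8 or 9 on the wild type hearts. Their summed linear level, in units of the array's 75th percentile, was 69.6 and 99.9 on hearts a and b, 5.65 on heart c and 3.69 to 4.69 on the wild type hearts. Foxn1, the master regulator of these cells, read -3.91 and -3.54 on hearts a and b and was not above background on the other 10 arrays.

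Psmb11, the thymus-specific proteasome subunit, read 1.63 and 2.40 on hearts a and b and was likewise not above background on the other 10. The same held for Pax1 (0.51 and 0.97) and Tbata (2.0 and 2.8), both listed with the thymic stroma. Prss16, the thymus-specific serine protease, read 2.52 and 3.21 against -5.53 on heart c and -5.47 to -5.26 on the wild type hearts. Krt5, a keratin of basal epithelium that other organs also make, read 3.27 and 2.89 against -6.82 to -4.72 on the other hearts. The part of these cells in the signal of the 10 genes was not tested.

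Cell cycle genes, lung genes and lymph node genes also differed between the knockout hearts. The median of the 20 cell cycle genes was 2.54, 3.38 and -0.05 on the knockout hearts. The median of 8 genes of lung and airway epithelium was 9.96 (with 2 of the 8 probes saturated), 0.27 and 0.43, so it was high on heart a and not on heart b. The 5 genes of lymph node stroma had medians of 1.54, 2.21 and 0.33 and did not all move alike. Glycam1, a ligand of lymphocyte homing made by lymph node vessels, read 1.12, -1.36 and -4.89 and was above background on no other array. Cxcl13, a chemokine that attracts B cells, read 0.14, 0.32 and 1.35, within the range of the wild type hearts (-0.91 to 1.35). The 9 genes of NK and cytotoxic cells had medians of 1.13, 2.25 and 0.16. Macrophage genes had medians of -0.60, -0.52 and -0.08, and liver genes 2.87, 2.98 and 3.78, so the macrophage and liver lists did not follow the 10 genes. The part of these lists, of the sex marks that set hearts a and b apart, and of the slide in the signal of the 10 genes was not tested.

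**Figure D3:**
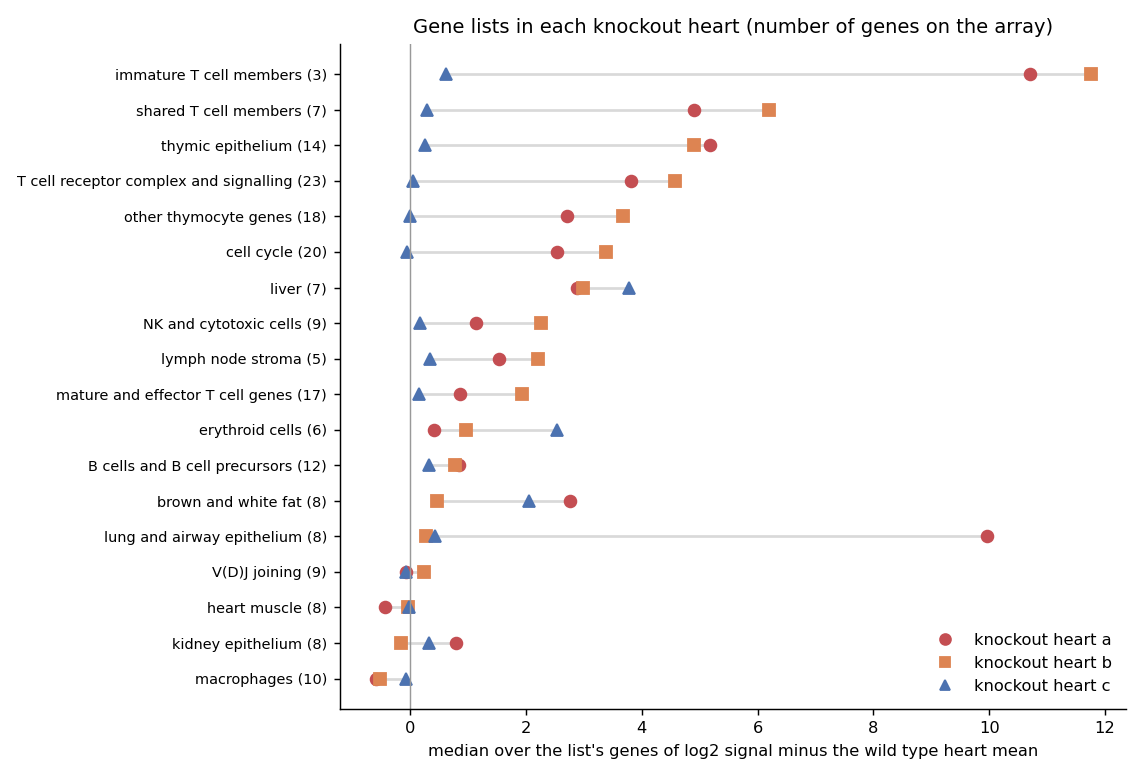
Median over the genes of each list of log2 signal minus the wild type heart mean (horizontal axis) on knockout hearts a, b and c, with lists ordered by heart b and the number of genes on the array in brackets. The lists of members, receptor genes, other thymocyte genes and thymic epithelium lie at 2.71 or more on hearts a and b and at 0.62 or less on heart c, mature and effector T cell genes lie lower on hearts a and b (0.86 and 1.93), and the lung list is high on heart a alone (9.96).

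The 10 genes followed each other over the 12 arrays. Pearson's r of each gene with the mean of the other 9 lay between 0.85 (Cd4) and 0.99 (Lck), which rests on hearts a and b standing apart. Among 16411 other genes above background on at least 2 arrays, the 10 most like the members' mean had r of 0.99 or more: Pglyrp2, Tctex1d1, Trat1, Psmb11, Myl10, Cd27, Fcho1, Trav7d-6, Jakmip1 and Cd5. These r rest on hearts a and b too, and the mean they were matched to is made of the values that listed the members. Tctex1d1, Trat1, Psmb11, Myl10 and Trav7d-6 were above background on 2 arrays only, so they entered through hearts a and b. The ranking is therefore a description and no support. Trat1, Psmb11, Cd27 and Cd5 also stand in the lists above. Trat1, an adaptor that joins the receptor complex, read -0.59 and 0.89 on hearts a and b and was not above background elsewhere.

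Promoter sequence was taken from the RefSeq table of build GRCm38.p6, as the 250 bases before the transcript start, and matched for 8 of the 10 genes. Cd4 and Cd8b1 were not matched. The promoters of the immature genes Rag1 and Ptcra are shown because these genes were above background on hearts a and b only. Capitals mark matches on either strand to the E-box CAGNTG, the Ikaros core TGGGAA and the RUNX core TGTGGT, and in Rag1 an E-box overlaps a RUNX match.
Rag1 (chr2:101649533-101649782, GRCm38.p6, minus strand): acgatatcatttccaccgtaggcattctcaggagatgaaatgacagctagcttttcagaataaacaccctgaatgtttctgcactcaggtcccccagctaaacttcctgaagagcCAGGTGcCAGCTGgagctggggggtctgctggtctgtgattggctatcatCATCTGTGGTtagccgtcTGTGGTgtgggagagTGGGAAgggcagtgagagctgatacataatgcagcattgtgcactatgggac
Ptcra (chr17:46763713-46763962, GRCm38.p6, minus strand): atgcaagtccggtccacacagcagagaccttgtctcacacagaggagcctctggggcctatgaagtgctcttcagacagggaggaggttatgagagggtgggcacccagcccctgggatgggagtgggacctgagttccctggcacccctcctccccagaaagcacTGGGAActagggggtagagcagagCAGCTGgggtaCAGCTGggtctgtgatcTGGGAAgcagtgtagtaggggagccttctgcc
The E-box was found for 5 of the 8 genes and in 44.8% of all 32851 promoters of that length. The Ikaros core was found for 6 of the 8 and in 21.6% of all promoters, and the RUNX core for 2 and in 14%. TATAAA and the ETS core CCGGAAG were in none of the 8, against 12.4% and 6.91% of all promoters, and the TCF core CTTTGA was in that of Cd3d, against 13.8%. These are matches of letters in a short window.

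In kidney, the knockout was compared with the wild type to ask how the same genes read in the second organ. The genes were listed for their heart signal, but with earlier results of these data known. The kidney contrast is therefore not fully independent of that choice. All 7 shared genes had a lower mean in the knockout kidneys, and none of the 8 tested members was called by limma (28 of 17198 genes, 0.163%, were called at an adjusted p under 0.05). The direction of the shared genes depended on the background correction: with normexp in place of the scanner's own correction 1 of the 7 was lower, and with median scaling or quantile normalization 6 were. Rag1 and Ptcra were above background on none of the 6 kidney arrays.

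Cd8b1 had the largest difference. It read -4.89, -3.18 and -4.39 on knockout kidneys a, b and c and -1.56, -2.44 and -1.87 on the wild type kidneys. The groups did not overlap, and the difference was -2.20 ± 0.46 (SE, n = 3 against 3, limma adjusted p = 0.126). It had the same sign in 19 of 20 alternatives, the exception being the one that keeps the Cd8b1 probe on chromosome 5, and adjusted p ranged from 0.0627 to 0.733.

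Cd8a read -3.91, -3.83 and -4.41 in the knockout and -3.30, -3.70 and -3.28 in the wild type, a difference of -0.63 ± 0.22 (limma adjusted p = 0.295). Its probe with 10 spots read -6.16, -5.38 and -6.14 against -4.14, -4.76 and -4.17, a difference of -1.53 ± 0.29 (limma with 1 row per probe, adjusted p = 0.133), so the 2 probes agreed in direction and differed in size. Lck read -3.24, -2.61 and -2.82 against -2.13, -2.42 and -2.31, a difference of -0.60 ± 0.21 (adjusted p = 0.286). For all of these every knockout kidney lay below every wild type kidney.

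Cd3g read -4.15, -2.91 and -3.45 in the knockout and -2.43, -2.79 and -2.88 in the wild type, also without overlap, with a difference of -0.81 ± 0.32 (limma adjusted p = 0.359). Cd3d read -4.22, -2.56 and -3.08 against -2.67, -2.03 and -2.88 and overlapped, at -0.76 ± 0.45 (adjusted p = 0.520). Cd4 differed by -0.41 ± 0.35 (adjusted p = 0.651), Cd3e by -0.04 ± 0.19 (0.943) and Dntt by 0.05 ± 0.23 (0.939), all with overlapping arrays. Every knockout kidney lay below every wild type kidney for 4 of the 8 tested members and for 12.6% of all genes tested. An unadjusted p under 0.05 was reached by the same 4 members and by 13.1% of all genes.

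Knockout kidney a, which carried the sex marks of hearts a and b and lay alone on its slide, was the lowest array for Cd3d, Cd3g, Cd4, Cd8b1 and Lck. Without it the differences were -1.83 for Cd8b1, -0.70 for Cd8a, -0.48 for Cd3g and -0.42 for Lck. Within the slide that held both genotypes (knockout b and c, wild type a and b) they were -1.79, -0.62, -0.57 and -0.44, and none was called (limma adjusted p from 0.126 to 0.285). The genes of mature and effector T cells were lower too: 12 of 13 tested, with a median difference of -0.91 and 8 without overlap, against a median of -0.07 over all genes.

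Of 19 tested genes of receptor signalling 14 were lower (median -0.39), 10 without overlap, and of 15 other thymocyte genes 8 were lower (median -0.00). None of these genes was called. Ccl5, a chemokine of activated T cells singled out after its values were seen, read -1.34, -0.42 and -0.61 in the knockout and 1.28, 0.77 and 1.0 in the wild type (limma adjusted p = 0.0679, and from 0.0351 to 0.702 over the alternatives). Other lists moved beside them in kidney: 9 of 10 macrophage genes (median -0.64) and 18 of 19 cell cycle genes (median -0.90) were lower, and none of these genes was called. Their part in the difference was not tested.

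**Figure D4:**
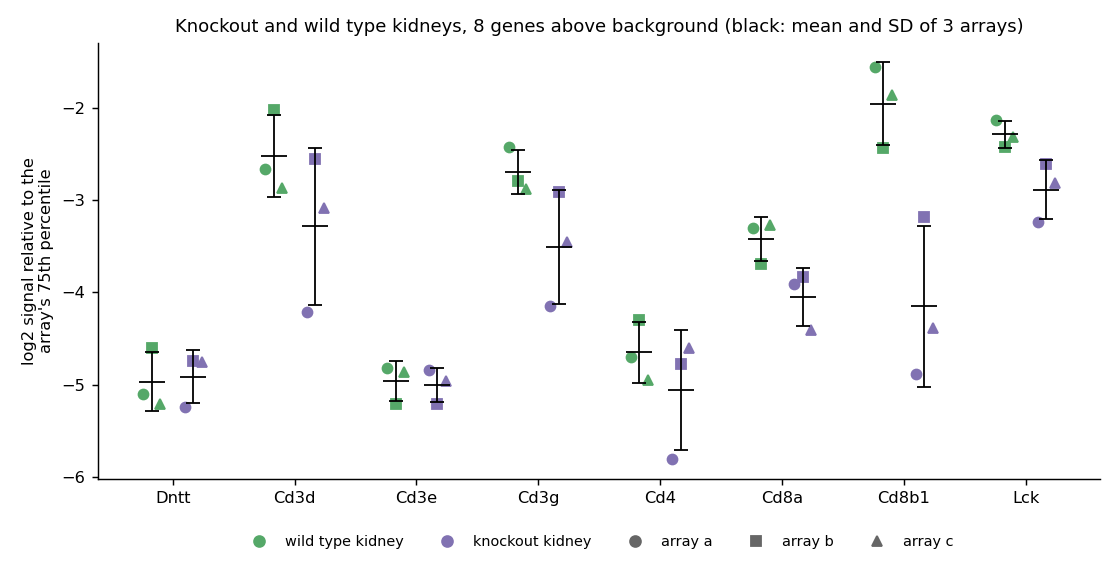
Log2 signal relative to the array's 75th percentile (vertical axis) of the 8 genes above background in kidney, in wild type and knockout, with each array as a symbol and the mean and SD of 3 arrays in black. Cd8b1 separates most (-1.56 to -2.44 against -3.18 to -4.89), and Dntt and Cd3e overlap.

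The wild type organs were compared to give the resting level of these genes. Both this and the knockout comparisons use the same wild type arrays, so the comparisons are not independent. Cd3g was 1.40 ± 0.29 higher in heart than in kidney (SE, n = 3 against 3, limma adjusted p = 0.00406), Cd3d 1.22 ± 0.36 higher (adjusted p = 0.0204) and Lck 0.79 ± 0.26 higher (adjusted p = 0.0337). Cd4 was 0.88 ± 0.19 lower in heart (adjusted p = 0.00499), with the probe whose companion read no signal in either organ. Cd8b1 was 1.07 ± 0.42 higher in heart and missed the threshold (limma adjusted p = 0.0556). It was called in 5 of 15 alternatives. These were normexp, a filter on every array, the replicate block, leaving out wild type heart b (0.0495) and keeping the chromosome 5 probe, which reversed its sign. Cd3e (0.26 ± 0.17), Cd8a (-0.06 ± 0.36) and Dntt (-0.07 ± 0.22) had overlapping arrays.

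These 4 calls among 8 tested members stand beside 64.4% called of all 18019 genes, 34.2% higher and 30.3% lower in heart. The call of Cd3g held in each alternative run. That of Cd3d was lost without wild type heart a (adjusted p = 0.0534), wild type heart b (0.0521), wild type kidney a (0.0592) or wild type kidney c (0.0592). That of Lck was lost without wild type heart a (0.0514) or wild type kidney a (0.0534), b (0.0947) or c (0.0712), and with median scaling, quantile normalization or no filter, and that of Cd4 with normexp (0.30). Wild type hearts lay on slide 4 and wild type kidneys on slides 2 and 3, so slide and organ cannot be told apart here.

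Among the other lists, 15 of 21 tested genes of receptor signalling were called higher in wild type heart and 2 called lower. By direction alone, 17 were higher and 4 lower. Cd28, a costimulatory receptor, was at least 7.43-fold higher (limma adjusted p = 9.77e-07), a bound since it was not well above background on the kidney arrays. With normexp its difference was 0.76 on the log2 scale (limma adjusted p = 0.00293). Of 14 genes of mature and effector T cells 9 were called higher and 0 called lower, and all 14 were higher by direction. Among those called was S1pr1, the receptor for lymphocyte exit, at 3.22 ± 0.17 (limma adjusted p = 2.96e-06), a gene that vessel cells make as well. Of 16 other thymocyte genes 7 were called higher and 3 called lower, with 12 higher and 4 lower by direction. All 10 macrophage genes were higher in heart, so the T cell genes were not alone in this.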

How the data were processed

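Total RNA from 12 organs was hybridised to 1-colour (Cy3) Agilent arrays. The deposited scanner files hold the intensity of each spot, which the authors extracted with Agilent's Feature Extraction software, version 9.5.3.1 by the file headers and 9.1 by the submitters' processing notes. Positions are in build mm7. The processed intensity was background-subtracted and not scaled between arrays per the file headers. The authors also deposited a table of log2 values centred per probe. Each of its columns followed the scanner array of the same letter and organ but the other genotype (r of 0.9998 or more). The labels of the scanner files were kept, under which Slc29a1 is lower in the knockout, and every direction rests on them.

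Processed intensities were set to log2 minus the 75th percentile of the array. Flagged spots were dropped and replicate spots averaged. Names were updated through the RefSeq table by accession (23075 probes), symbol (6582) or synonym (3077). A probe entered a test when every array of 1 or both groups had it well above background, and the brightest probe on the chromosome of its gene stood for a gene. The chromosome rule and the kidney fit with 1 row per probe were chosen after the data were seen: 74 of 32367 probes lay elsewhere.

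Groups were compared with limma 3.58.1 (R 4.3.3), with Benjamini-Hochberg adjustment over all genes, and the fit was tested on simulated data. The labels do not name separate animals per array, so p-values measure the spread between these samples. Same-lettered hearts deviated together (r of 0.39, 0.19 and 0.26, against -0.29 to 0.07 between other letters). The labels do not say that letters pair the hearts, and the main heart fit left the letter out. Same-lettered kidneys (0.10, -0.01 and -0.15) and wild type organs (0.04, -0.02 and -0.05) did not deviate together.

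The members and lists were chosen with earlier results of these data known. All members were named. For part of the lists, up to 4 genes among those with the largest differences in heart were named as well. The rule for kidney and organs took called genes with the smallest adjusted p in each direction, and not every list is represented. Also named were the 10 genes most like the members and, in heart, list genes that describe a stage or stroma. Alternatives were other scalings, background corrections, filters, probe rules, blocks by letter or slide, a sex-mark covariate, the deposited table and each array left out. One gene that this rule names is not reported here.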

Additional observations from a re-analysis of the deposited data

Results flagged for a closer look

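For 5 shared genes every knockout heart lay above the wild type heart mean and every knockout kidney below the wild type kidney mean, and the difference between the organs was not tested. The mean difference in heart minus that in kidney was 7.02 for Cd8b1, 6.0 for Cd8a, 4.86 for Lck, 4.52 for Cd3d and 4.43 for Cd3g on the log2 scale. The lowest heart difference was that of heart c in each case, at 0.55, 0.77, 0.17, 0.18 and 0.16, so the size of these values comes from hearts a and b. The heart part rests on the values that listed the genes.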

How the results depend on the processing

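The precision is limited by 3 arrays per group and, for Rag1, Ptcra and the second probes of other members, by signals at background. In heart the number of genes called was 66 with quantile normalization, 17 with normexp, 58 without a filter, 27 with a filter on every array, 55 with the replicate block by letter, and 295 both with only the arrays that lack Xist signal and without knockout hearts a and b (the latter chosen after the data were seen). It ranged from 26 (without wild type heart b) to 2253, and that of the members from 0 to 10, when 1 heart was left out, the upper ends without knockout heart c, where the member count is no support, since these values listed the genes and Rag1 and Ptcra pass the filter only through hearts a and b. In kidney it was 102 with median scaling, 0 with normexp (where the lowest adjusted p was 0.702), 4 without a filter, 12 with outlier spots kept and with the deposited table, 50 with the mean of a gene's probes, and 2 with the replicate block by letter, a block that does not follow from a pairing there. It was 82 with only the arrays that lack Xist signal, 88 with that signal as a covariate, 263 within the slide with both genotypes and 289 with the slide as a block, and ranged from 1 to 94 when any 1 of the 6 kidneys was left out, while no member was called in any of these. Between wild type organs 4 members were called, and 2 to 4 without 1 array. Keeping probes on another chromosome turned Cd8b1 to -3.40 in that comparison. Median scaling moved the median of all genes in heart from -0.07 to -0.23 and between organs from 0.07 to -0.06. The replicate block changed the call of no other member than Cd8b1 between organs (adjusted p = 0.0101) and ended that of Slc29a1 in heart (0.0666) and kidney (0.08). Causes of these shifts were not tested.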
